A study of Homo sapiens with 2 samples.

Results

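Tetraspanins are small membrane proteins that pass the membrane several times and carry a large extracellular loop. They bind one another and partner proteins such as integrins, receptors and proteases, and so sort them into patches of the membrane and into vesicles. Prominins are larger pentaspan glycoproteins that bind cholesterol and sit on protrusions of the cell surface. In epithelial cells these families are known for adhesion to laminin, migration, shedding of surface proteins and exosome release. The genes described here are those of the deposited count table named TSPAN with a number, together with CD9, CD37, CD53, CD63, CD81, CD82, CD151, UPK1A, UPK1B, PROM1 and PROM2. The choice gave 32 of the 18944 genes in the table, 21 of them named TSPAN, and left out by its own rule 1 further TSPAN gene.

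RNA was sequenced from H1993, an established human lung adenocarcinoma line with amplification of the receptor tyrosine kinase gene MET. The parental group was 1 library of H1993 with DMSO given as its treatment. The resistant group was 1 library of an H1993 derivative with PHA665752, an inhibitor of the MET kinase, given as its treatment. That derivative came from culture in drug at doses rising between 1 nM and 1 µM, was kept at 1 µM and spent 1 week without drug before use, per the labels' protocols. The labels do not say whether the derivative is 1 clone or a mixed population. The question is how these genes differ between the line and its resistant derivative. With 1 library per group no difference has a replicate check, no p-value is given, and every value describes these libraries.

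Total counts were 16723181 (parental) and 17086748 (resistant). Levels are given as CPM, the count scaled to library size, with sizes adjusted by TMM, a trimmed mean of the gene-wise ratios. Ratios are resistant over parental on the log2 scale, with 0.5 added to each count. A gene was retained when it reached 1 CPM in at least 1 library, and was called higher or lower when its ratio was at least 2-fold and the exact 95% interval of the ratio excluded 0. These intervals cover counting error only. Fewer cells that make a transcript and less of it per cell cannot be told apart in such bulk RNA. The epithelial markers KRT8, KRT18, KRT19, EPCAM and CDH1 were all present, at a summed 6106 and 6721 CPM. KRT8 and KRT18 were above 0 in ratio, and the other markers were below it, EPCAM called lower (-1.25), CDH1 at -0.69 and KRT19 at -0.63. Of 8 leukocyte markers 3 had 0 counts in both libraries, and the list summed to 1.84 and 2.71 CPM. PTPRC was called lower (21 and 7 counts) and CD14 higher (5 and 33 counts), each retained only through 1 library, which fixed its direction. Of 6 fibroblast markers, 1 had 0 counts in both, and the sum was 20.9 and 15.0 CPM, nearly all of it COL1A1. Of 4 endothelial markers, CDH5 was called higher with 5 and 495 counts, KDR, PECAM1 and VWF had at most 1 count in a library, and the sum was 0.356 and 29.2 CPM. CDH5 was retained only through the resistant library, which fixed its direction. The part of other cell types in the results was not tested.

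Of the 32 genes, 22 were retained, 5 had counts but stayed under 1 CPM in both libraries, and 5 had 0 counts in both. In the resistant library 6 of the 22 were lower (PROM2, CD9, TSPAN1, TSPAN15, TSPAN2 and TSPAN11) and 3 were higher (TSPAN4, CD82 and TSPAN5). Over all 12245 retained genes of the table, 8.29% were lower and 12.1% higher by the same rule, against 27.3% and 13.6% of the members. Called either way were 9 members, or 40.9%, against 20.4% of all retained genes. The share of members higher was thus near that of all genes, and the share lower was above it. The median ratio of the retained members was -0.13 (quartiles -1.20 and 0.41), and that of all retained genes 0.00 (quartiles -0.39 and 0.43). Genes under 1 CPM in 1 library (PROM2, TSPAN2 and TSPAN11 in the resistant, TSPAN5 in the parental) were retained only through the other, which fixed the direction of their difference though not its size.

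**Figure D1:**
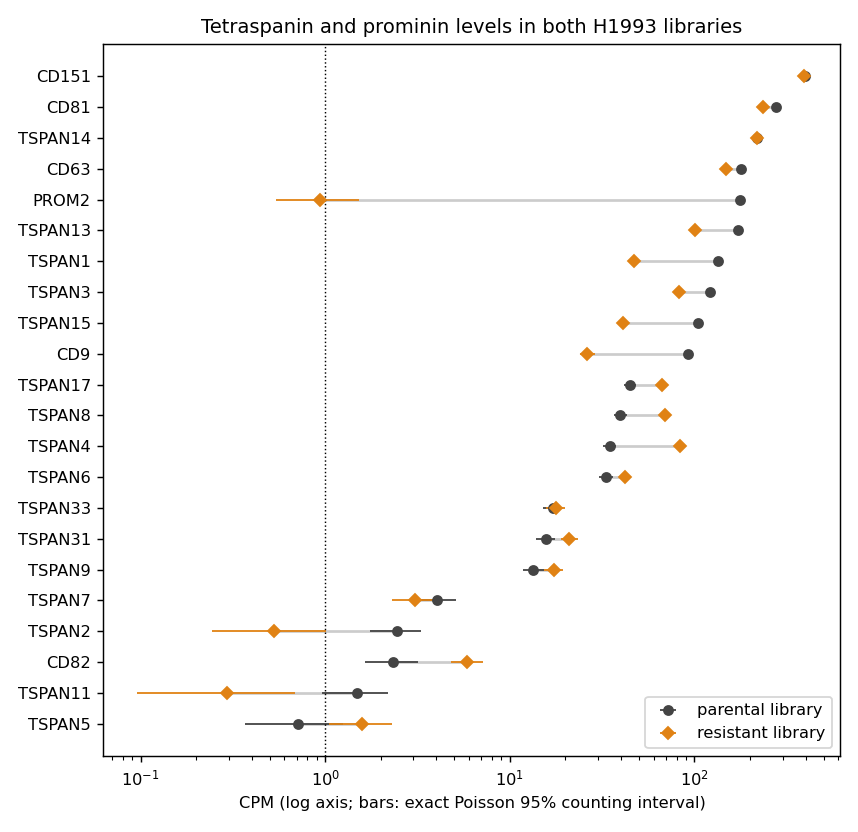
CPM (log axis) of the 22 retained members in the parental (circles) and resistant (diamonds) library, with exact Poisson 95% counting intervals as bars and 1 CPM as a dotted line. PROM2 has the widest gap between its symbols, from 176 to 0.943 CPM, while CD151 and TSPAN14 have overlapping symbols.

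**Figure D2:**
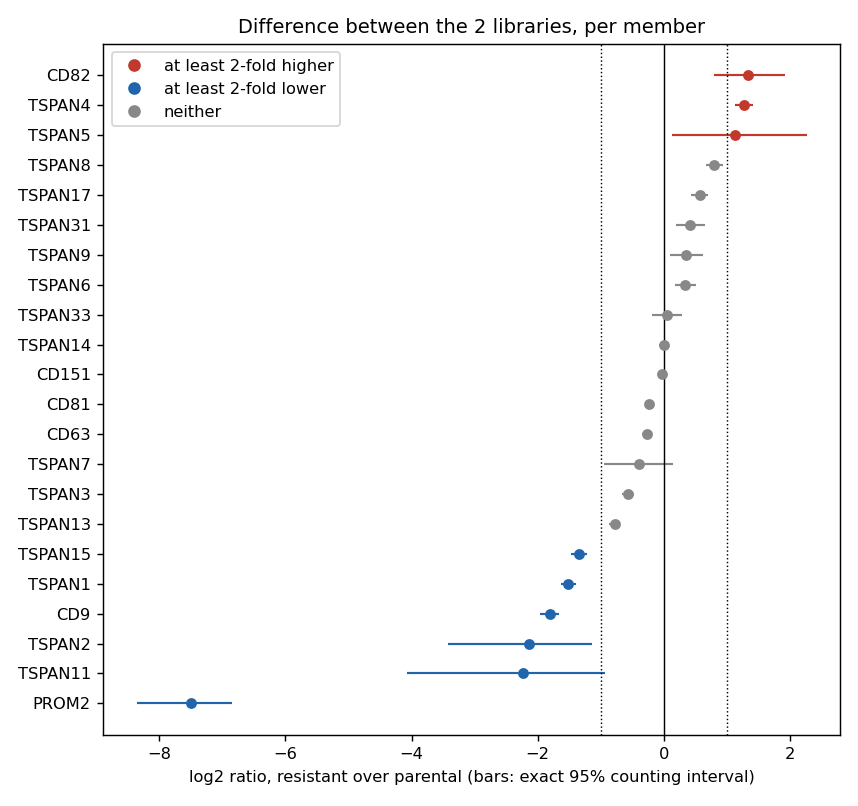
Log2 ratio of each retained member with its exact 95% counting interval, ordered by ratio; dotted lines mark 2-fold. PROM2 at -7.50 lies far from the next lowest member, TSPAN11 at -2.23, and no member exceeds 1.34.

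The prominins gave the most unequal pair of values. PROM2, the prominin of epithelial protrusions, had 2968 parental counts and 16 resistant ones. In level that is 176 CPM (exact Poisson interval 170 to 183) and 0.943 CPM (0.539 to 1.53), a log2 ratio of -7.50 (-8.36 to -6.85). Only 0.147% of all retained genes had a lower ratio. PROM1, which encodes the stem cell surface antigen CD133, had 5 and 0 counts, and its interval did not exclude equal levels. PROM1 was thus close to the limit of detection in both libraries, since a count of 0 allows 3 counts, or 0.177 CPM in the resistant library. The parental library held prominin RNA almost entirely as PROM2, and the resistant library held little of either.

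The regions around the gene starts are shown for the called members above 5 CPM in at least 1 library that have a single start in the RefSeq table, PROM2, TSPAN1, TSPAN15 and CD82, because these genes differed between the libraries and their start regions are unlike in CG content. RefSeq windows of 300 bases (250 before and 50 after the start, build GRCh38.p14) were at hand for 17 of the 22 retained members. Each is printed 5′ to 3′ along the transcribed strand, and capitals mark CG dinucleotides, the bases that DNA methylation acts on.
PROM2 (chr2:95274199-95274498, + strand): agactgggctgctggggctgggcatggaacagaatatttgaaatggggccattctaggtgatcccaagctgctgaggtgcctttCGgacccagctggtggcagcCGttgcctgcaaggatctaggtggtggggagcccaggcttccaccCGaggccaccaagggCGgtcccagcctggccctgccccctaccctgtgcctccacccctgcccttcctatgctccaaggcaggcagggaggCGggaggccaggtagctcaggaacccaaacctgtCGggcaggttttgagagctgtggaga
TSPAN1 (chr1:46174837-46175136, + strand): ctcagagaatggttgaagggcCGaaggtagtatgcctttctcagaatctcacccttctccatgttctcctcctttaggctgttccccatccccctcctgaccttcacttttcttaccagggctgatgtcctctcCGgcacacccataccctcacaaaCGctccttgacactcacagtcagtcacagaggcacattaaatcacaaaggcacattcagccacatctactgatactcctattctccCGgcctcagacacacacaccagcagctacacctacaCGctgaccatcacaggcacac
TSPAN15 (chr10:69451215-69451514, + strand): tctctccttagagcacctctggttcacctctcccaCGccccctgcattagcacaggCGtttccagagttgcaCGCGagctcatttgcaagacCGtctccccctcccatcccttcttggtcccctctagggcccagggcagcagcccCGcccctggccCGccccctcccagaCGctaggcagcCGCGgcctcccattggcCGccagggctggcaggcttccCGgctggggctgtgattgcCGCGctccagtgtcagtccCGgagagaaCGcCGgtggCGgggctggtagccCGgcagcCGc
CD82 (chr11:44565413-44565712, + strand): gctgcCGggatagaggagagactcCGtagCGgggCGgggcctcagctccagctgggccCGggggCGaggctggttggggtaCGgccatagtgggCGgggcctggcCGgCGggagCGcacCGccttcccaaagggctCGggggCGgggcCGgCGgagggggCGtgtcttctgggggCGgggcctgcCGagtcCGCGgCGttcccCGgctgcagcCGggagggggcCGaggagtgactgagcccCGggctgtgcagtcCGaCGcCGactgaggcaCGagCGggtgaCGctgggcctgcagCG

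The PROM2 window held 6 CG dinucleotides, that of TSPAN1 held 5 and that of TSPAN15 held 20, against 33 in the CD82 window. Over 9619 retained genes the median was 26 (quartiles 19 and 35), and over the 17 members 25 (quartiles 12 and 36). CD9, with 4 listed starts, had 12 at the first. Of the higher members TSPAN4, with 5 listed starts, had 47 at the first, and TSPAN5 had 50. The split was not clean, since the lower genes TSPAN2 and TSPAN11 had 38 and 36, while TSPAN6 and TSPAN8, both above 0 in ratio, had 5 and 1. This feature was chosen after the values were seen, and no DNA methylation was measured.

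Short motifs were searched on both strands of the same windows, at the first listed start of each gene. CACCTG, a binding sequence of the SNAI and ZEB repressors, occurred in 3 of the 17 member windows (TSPAN2, TSPAN13 and TSPAN33) and in 18.8% of those of retained genes. GGGCGG, the GC box, occurred in 13 of 17 and in 71.0%. TGANTCA, the AP-1 site, occurred in 1 of 17 (CD63) and in 4.61%. Of the called members only TSPAN2 had CACCTG in its window, and no other sequence of these repressors was searched.

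Among tetraspanins that associate with integrins and growth factor receptors, CD9 differed most of those above 5 CPM. CD9, which restrains cell fusion and migration in many settings, had 1546 and 446 counts, or 91.8 and 26.3 CPM. It was 3.50-fold lower in the resistant library (3.14 to 3.89), and 3.31% of retained genes had a lower ratio. TSPAN1, a tetraspanin of secretory epithelia, had 2263 and 800 counts, or 134 and 47.1 CPM, and was 2.85-fold lower (2.63 to 3.10). CD9 and TSPAN1 are close to CD81 and CD151 in kind, but the latter pair stayed well within 2-fold. CD151, the tightest known partner of laminin-binding integrins, had 6682 and 6635 counts, or 397 and 391 CPM. Its ratio of -0.02 (-0.07 to 0.03) had an interval that included equal levels. CD81, a tetraspanin common on exosomes, had 4659 and 3978 counts and a ratio of -0.24 (-0.30 to -0.18).

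CD82 and TSPAN4 were the higher members of this group. CD82, known as a suppressor of metastasis that dampens EGFR and MET signalling, had 39 and 100 counts, or 2.32 and 5.89 CPM, and was 2.54-fold higher (1.74 to 3.78). It remained a low gene in both libraries, and its difference in the authors' deposited table of log2 values was 0.95, just short of 1. With the log undone and 1 subtracted, those values were 1.51 (parental) and 3.83 (resistant). TSPAN4, known for building migrasomes on the trailing fibres of migrating cells, had 585 and 1421 counts, or 34.8 and 83.7 CPM. It was 2.41-fold higher (2.19 to 2.66), with the whole interval beyond 2-fold. TSPAN8, associated with invasion in gastrointestinal carcinomas, had 669 and 1179 counts and a ratio of 0.81 (0.67 to 0.94). TSPAN8 was the highest of the members that did not pass, next to TSPAN5 at 1.13 just inside.

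The remaining genes of the kind were scarce. TSPAN2, a gene of oligodendrocytes, had 41 and 9 counts and was 4.59-fold lower (2.20 to 10.7). TSPAN11 had 25 and 5 counts and was 5.04-fold lower (1.90 to 16.9). Both calls rest on under 50 reads a library, and in the authors' deposited table the log2 values of TSPAN2 (0.832 and 0.232) and TSPAN11 (0.341 and 0.074) are under 1 throughout, which no difference of 1 could follow from. TSPAN7, a neuronal tetraspanin, had 68 and 52 counts with a ratio of -0.40 (-0.95 to 0.14). TSPAN9, studied in platelets, had 226 and 293 counts with a ratio of 0.36 (0.11 to 0.62). TSPAN18 had 2 and 3 counts. Of the 11 retained genes of this group, 4 were lower and 2 higher (median -0.24), against 8.29% and 12.1% of all retained genes. With at least 5 CPM, 2 of 8 were lower and 2 higher, against 7.01% and 9.38%.

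Levels of different genes can be compared only per transcript length. The authors' deposited log2 values, with the log undone and 1 subtracted, behave as such a scale. Within a gene their ratio tracked that of the counts (median gap 0.00 on the log2 scale, with 90% of 10256 genes between -0.02 and 0.03). CPM divided by them was close to transcript length in kilobases for the median gene (ratio 0.967). The ratio of 90% of 10079 genes lay between 0.497 and 1.603, so single genes can depart from it. On that scale CD151 made up 50.2% (parental) and 59.1% (resistant) of the sum of CD9, CD81 and CD151. The CD9 share was 13.9% and 4.73%, and that of CD81 35.9% and 36.2%. With CPM per kilobase of GENCODE transcripts the CD9 share was 12.7% and 4.31%. The order CD151, CD81, CD9 was the same in both libraries and on both scales.

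The TspanC8 tetraspanins escort the protease ADAM10 to the cell surface and direct it to different substrates. Of the 5 retained, 1 was lower and another, near the detection limit, was higher, against 8.29% and 12.1% of all retained genes. TSPAN15, which steers ADAM10 to N-cadherin, had 1754 and 698 counts, or 104 and 41.1 CPM. It was 2.53-fold lower (2.32 to 2.77), with the whole interval beyond 2-fold. TSPAN5 had 12 and 27 counts and was 2.23-fold higher (1.09 to 4.84), and its difference in the authors' deposited log2 values was 0.285 with both values under 1. TSPAN14 was level at 3655 and 3680 counts, with a ratio of -0.00 (-0.07 to 0.06). TSPAN17 had 754 and 1131 counts and a ratio of 0.57 (0.44 to 0.71). TSPAN33, also a gene of B cells and macrophages, had 288 and 300 counts and a ratio of 0.05 (-0.19 to 0.29). TSPAN10 had 10 and 11 counts, under 1 CPM in both libraries.

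The balance among TspanC8 genes shifted away from TSPAN15. On the deposited per-length scale TSPAN15 made up 51.2% (parental) and 26.6% (resistant) of the summed TspanC8 genes, and TSPAN14 29.6% and 38.8%. TSPAN17 made up 13.9% and 27.1%. The transcript length assigned to TSPAN14 matters here. With CPM per kilobase of GENCODE principal transcripts, TSPAN14 led both libraries at 64.0% and 72.1%, and TSPAN15 stood at 24.9% and 11.1%. The fall of the TSPAN15 share held on both scales, and its leading place in the parental library did not. ADAM10 itself had 2032 and 2344 counts and was 1.14-fold higher (1.08 to 1.21), short of the rule.

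The 5 genes listed as lysosome and exosome tetraspanins stayed within 2-fold, with 0 called and a median of -0.26, against 20.4% of all retained genes called. The list does not hold every tetraspanin of vesicles. CD81, common on exosomes, and CD9 were placed in the group above, where CD9 was 3.50-fold lower. CD63, the lysosomal and exosomal marker, had 3005 and 2527 counts and a ratio of -0.26 (-0.34 to -0.19). TSPAN13 had 2879 and 1699 counts, or 171 and 100.1 CPM, and a ratio of -0.77 (-0.86 to -0.69), the lowest among retained members that were not called. TSPAN3 had 2055 and 1404 counts with a ratio of -0.56 (-0.66 to -0.46). TSPAN6, which takes part in endosomal sorting, had 559 and 715 counts and a ratio of 0.34 (0.18 to 0.51). TSPAN31, first found amplified in sarcoma, had 263 and 356 counts and a ratio of 0.42 (0.19 to 0.66). Its exons share 1369 bases with those of CDK4 on the opposite strand in GENCODE. CDK4 had 5586 and 4577 counts, so reads of the pair cannot be told apart unless strand was used in counting, which is not stated. CD151 shares 257 exon bases with POLR2L, which had 1540 and 2958 counts, in the same way.

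Most tetraspanins of leukocytes and the bladder had few or no counts, though TSPAN33, described above, was at 17.1 and 17.7 CPM. CD37, CD53 and TSPAN32, genes of blood cells, had 0 counts in both libraries, as did TSPAN16 and UPK1A. UPK1B, a uroplakin of the bladder lining, had 7 and 0 counts. Its ratio interval excluded equal levels (upper end -0.54), yet at 0.416 CPM in the parental library it was not retained. The lower end of its fold interval was 1.45-fold. TSPAN19 had 1 count in each library. Of the other uroplakins only UPK3B was retained, at 25 and 40 counts with a ratio of 0.66. The photoreceptor tetraspanin genes, outside the rule, were also scarce, with 55 and 31 counts for ROM1 and 1 and 1 for PRPH2.

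**Figure D3:**
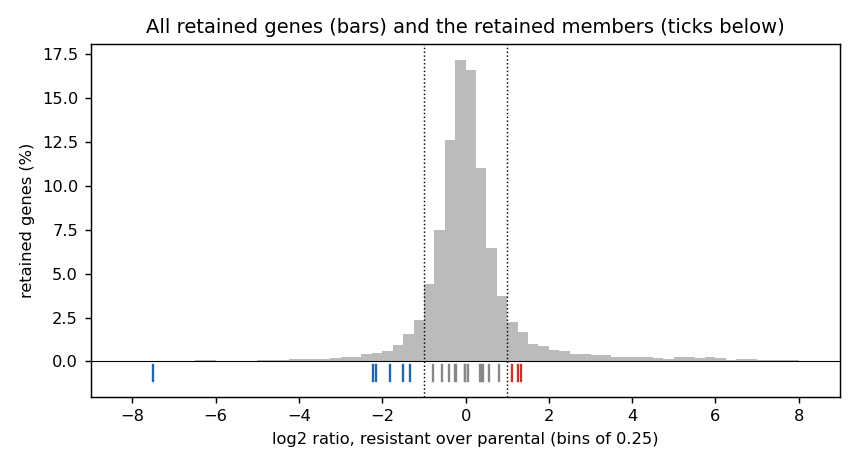
Share of all 12245 retained genes (bars, bins of 0.25 log2) by log2 ratio of resistant over parental, with the 22 retained members as ticks below the axis in blue (lower), red (higher) and grey (neither). The axis is drawn from -9 to 9, which leaves out 28 genes, and the ticks of the lower members lie between -7.50 and -1.34.

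The genes next to the called members were called about as often as all genes. For each called member the 5 nearest retained genes on either side, in RefSeq order, were compared. Of these 90 genes, 14.4% were higher and 7.78% lower, against 12.1% and 8.29% of all genes, and their median was -0.07. Around PROM2 on chromosome 2 the median was -0.16, with MAL (2.14) and GPAT2 (5.41) higher and KCNIP3 (-1.60) and RPIA (-1.16) lower. TSPAN4 and CD151 lie close together on chromosome 11, with POLR2L (0.93) between them, at ratios of 1.27 and -0.02. For TSPAN1 on chromosome 1, all 10 of its neighbours had ratios below 0, from -1.77 to -0.23 with a median of -0.63. Such runs also lay around uncalled members. Of 10 neighbours each, 9 were below 0 for TSPAN3 (median -0.85), TSPAN9 (-0.65) and TSPAN8 (-0.40), and 1 for TSPAN7 (0.79).

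**Figure D4:**
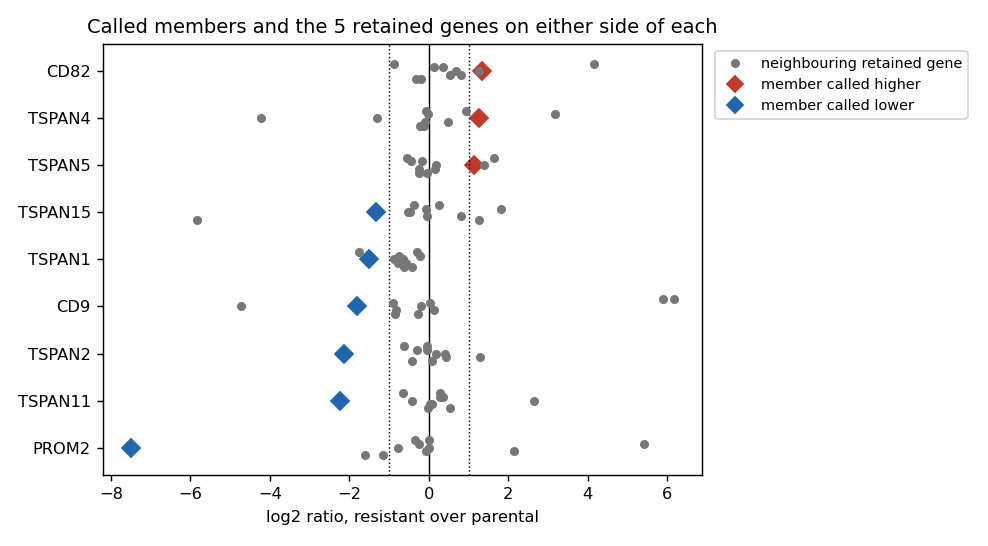
Log2 ratios of the 9 called members (diamonds) and of the 5 retained genes on either side of each (grey points); dotted lines mark 2-fold. Only the neighbours of TSPAN1 lie entirely on one side of 0, and PROM2, TSPAN2 and TSPAN11 each lie below all of their neighbours.

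Genes of proteins that work with tetraspanins gave lists with members on both sides of 0. Of 9 retained integrin genes that pair with tetraspanins, 3 were lower and 2 higher (median -0.80), against 8.29% and 12.1% of all retained genes. ITGA3, the laminin receptor chain that CD151 binds, had 4178 and 588 counts, or 248 and 34.6 CPM, with a ratio of -2.84. ITGB4 (-1.49) and ITGA5 (-1.03) were lower too, and ITGA6 was at -0.86. ITGA1 (2.34) and the scarce ITGA2B (2.97, from 5 and 43 counts) were higher, with ITGAV at 0.86 and the shared chain ITGB1 at -0.17. ITGA2B was retained only through the resistant library, which fixed its direction. With at least 5 CPM, 1 of 8 integrin genes was higher and 3 were lower, against 9.38% and 7.01% of all genes. CD151 was thus level in a library in which its partner ITGA3 was 7.16-fold lower (6.57 to 7.82).

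For other surface partners, 23 were retained, 4 of them higher and 2 lower (median -0.08), against 12.1% and 8.29% of all retained genes. EPCAM, which associates with claudin-7 and tetraspanins in epithelia, was 2.38-fold lower (2.27 to 2.49), at 389 and 164 CPM. TGFA, a ligand precursor that CD9 binds, was at -2.20. EGFR (1.19) and the amino acid transporter subunit SLC3A2 (1.19) were higher, as were ICAM1 and DPP4, from 2 and 0 counts to 49 and 80. ICAM1 and DPP4 were retained only through the resistant library, which fixed their direction. With at least 5 CPM, 2 of 21 surface partners were higher and 2 lower, against 9.38% and 7.01% of all genes. MET was at -0.67, CLDN7 at -0.76, CDH1 at -0.69 and HBEGF, a growth factor precursor that CD9 binds, at 0.87.

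Of 19 genes of exosome formation, 2 were higher and 2 lower (median -0.06), near the 12.1% and 8.29% of all retained genes. SDCBP, which encodes syntenin, the adaptor that binds CD63 and syndecans, had 2041 and 6392 counts, or 121 and 377 CPM. It was 3.11-fold higher (2.95 to 3.27), against a CD63 ratio of -0.26. SMPD3, a ceramide-forming enzyme gene, had 15 and 46 counts (1.57). It was retained only through the resistant library, which fixed its direction. With at least 5 CPM, 1 of 18 genes of the list was higher, against 9.38% of all genes. The secretory GTPase gene RAB27B (-1.07) and EXPH5, which encodes a RAB27 effector (-1.03), were just past the 2-fold line. Of the 11 acyltransferase and kinase genes of the tetraspanin web, 2 were higher and 1 lower (median -0.15), against the same shares of all genes. ZDHHC2, which attaches palmitate to CD9 and CD151, had 170 and 425 counts and was 2.48-fold higher (2.07 to 2.98). PRKCB was higher from 0 and 19 counts, with a fold interval that starts at 4.63-fold, and SYK was at -1.04. PRKCB was retained only through the resistant library, which fixed its direction. With at least 5 CPM, 1 of 10 was higher and 1 lower, against 9.38% and 7.01% of all genes.

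Among genes of apical protrusions, where prominins sit, 4 of 13 retained were lower and 2 higher (median -0.51), against 8.29% and 12.1% of all retained genes. The lower genes were EPS8 (-1.60), CDHR5 (-1.85), ESPN (18 and 1 counts) and VIL1 (34 and 0 counts). The whole list summed to 1078 CPM (parental) and 1138 CPM (resistant). CDHR5, ESPN and VIL1 were retained only through the parental library, which fixed their direction. The lower count was 1 of 10 with at least 5 CPM, against 7.01% of all genes. With the deposited log2 values 1 of 13 was lower and 1 higher, against 4.83% and 7.56%. MUC1 (1.52) and HDAC6, which encodes a deacetylase that binds CD133 (1.34), were higher. Of the uncalled genes PODXL was lowest at -0.85 and TTYH3 highest at 0.86. The L6 genes encode proteins that resemble tetraspanins in topology but are not members of the family. TM4SF1 had 57 and 7887 counts, or 3.39 and 465 CPM, and was 137-fold higher (106 to 181). TM4SF5 (3 and 22 counts) was higher and TM4SF19 (182 and 39 counts) lower, at 2.67 and -2.22. TM4SF5 was retained only through the resistant library, which fixed its direction.

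**Figure D5:**
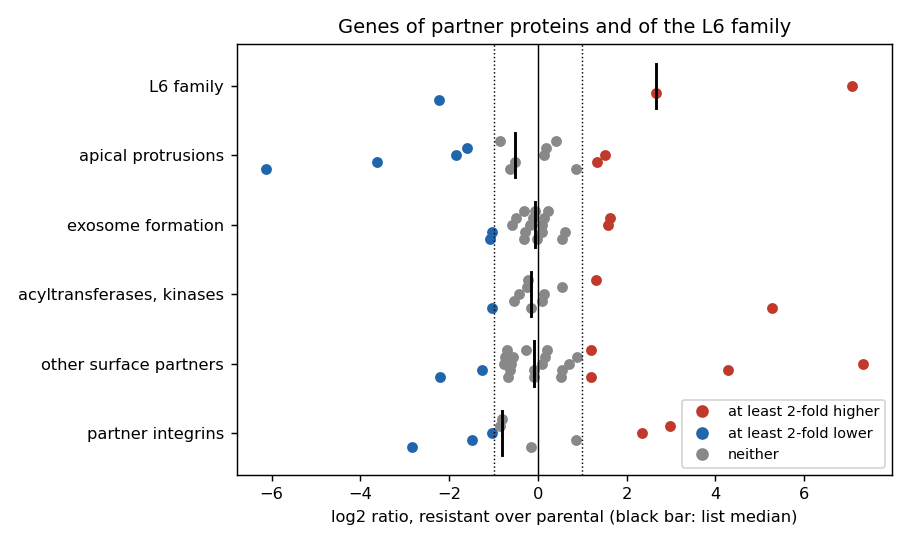
Log2 ratios of the retained genes in 6 lists of partner and related genes, coloured by call, with the list median as a black bar and 2-fold as dotted lines. The integrin median of -0.80 and the apical protrusion median of -0.51 lie below 0, and TM4SF1 at 7.09 is the rightmost point of the L6 family.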

How the data were processed

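Total RNA of 2 libraries, 1 of parental and 1 of resistant H1993 cells, was prepared with TRIzol and a TruSeq kit, per the labels' protocols. The submitters' processing notes list FastQC (read quality) and STAR (alignment) without versions, and both GRCh38 and hg19. The counting program and its strand setting are not given in the sources used here. The authors deposited raw counts per gene symbol and normalized log2 values, per the file headers; the method behind the log2 values is not stated.

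Library sizes were scaled by TMM in edgeR 4.0.16 (R 4.3.3). Ratios add 0.5 to each count. Exact conditional binomial (Clopper-Pearson) and Poisson intervals at 95% used scipy 1.17.1, and the script was tested on simulated data. Genes needed 1 CPM in at least 1 library, and calls were made over the whole table. Lengths came from GENCODE release 29 (median of APPRIS principal transcripts) and gene order and start windows from RefSeq. Alternatives were other scalings (total counts, DESeq2 1.42.0 size factors, upper quartile), filters, an addition of 2, the deposited log2 values and stricter size rules. The members and all lists were chosen with earlier results of these data known. Every member is named. Of each other list the called genes, the most different uncalled gene in each direction and MET, EGFR, ADAM10, ITGB1, ITGA3, ITGA6, ITGB4, EPCAM and CDH1 could be named. Called neighbours, CDK4, POLR2L and single markers were named after their values were seen.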

Additional observations from a re-analysis of the deposited data

How the results depend on the processing

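The members called, 3 higher and 6 lower, were the same genes with total counts, DESeq2 size factors, upper quartile scaling and 2 added to each count. Without a filter UPK1B joined the lower genes, giving 7 of 27, against 7.23% of all genes. With at least 5 CPM, 2 of 18 were higher and 4 lower, against 9.38% and 7.01% of all genes, since fewer genes were retained. With the deposited log2 values only TSPAN4 was higher, so the count was 1, and 4 were lower (PROM2, CD9, TSPAN1 and TSPAN15), against 7.56% and 4.83% of all genes. With the whole interval beyond 2-fold, 1 was higher (TSPAN4) and 5 lower, against 8.96% and 5.35%. With a 4-fold rule 0 were higher and 3 lower (PROM2, TSPAN2 and TSPAN11), against 6.32% and 2.93%. The median ratio of the retained members was -0.022 without a filter and -0.012 with at least 5 CPM, as 5 members entered or 4 left the set, and between -0.15 and -0.12 with the other scalings and the deposited values. Among the other scalings, 2 added and the deposited log2 values, single ratios left their counting interval only with the last, in PROM2 (-5.03), TSPAN2 (-0.60) and TSPAN11 (-0.27). The deposited values behave as if 1 were added before the log, which shrinks the differences of low values. With the log undone and 1 subtracted they were 38.2 and 0.201 for PROM2, 0.780 and 0.174 for TSPAN2, and 0.267 and 0.053 for TSPAN11. No called ratio changed sign. Of 234 recomputed list counts, 37 moved by over 1.5 times, 1 of them without a filter and the others with at least 5 CPM, the deposited values or a stricter rule. No paired analysis was possible because each group has 1 library, and none could be left out. For genes under 50 counts, such as TSPAN2, TSPAN5 and TSPAN11, depth limits the size of the ratio.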
